A study of Mus musculus with 4 samples.

Results

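Imprinted genes, meaning genes that are transcribed mainly from the copy inherited from 1 parent, were examined in insulin reporter-positive cells that had been made from mouse gallbladder. The genes were a list of 38 symbols, looked up by symbol in the deposited RPKM table of 20377 genes, and 36 of them had a row; H19 and Meg3, both non-coding RNAs, had none and were not analysed here. All 4 libraries belong to 1 group, rGBC2. The source was primary gallbladder cells of mice aged 8 weeks on a C57BL/6 background, which carry B6.Cg-Tg(Ins1-EGFP)1Hara/J, also called MIP-GFP, a green fluorescent reporter under an Ins1 promoter. The cells received Pdx1, Ngn3, Mafa and PAX6 and compounds that the labels leave unnamed, were kept for 10 days, and were then sorted for the reporter, so cells without an active Ins1 promoter are missing by design. No unreprogrammed or native beta-cell sample was analysed here, and the labels do not say whether the libraries stem from separate animals or cultures. Each p-value therefore reflects only the spread of these libraries, which may be technical in part. Y-linked transcripts, given below, were present in replicates 1 and 2 and listed at 0 in replicates 3 and 4, so the libraries are not all alike in source.

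Imprinted genes sit in clusters, and each cluster is governed by an imprinting control region whose DNA methylation differs between the maternal and the paternal copy from the germ line on. Many paternally transcribed members promote fetal growth and many maternally transcribed ones restrain it, and several are used again in postnatal endocrine tissue. Cdkn1c, for example, restrains the cell cycle in human beta cells. In RNA counted per gene the parental copies are not separated, so the values give the total transcript of each gene and say nothing about whether its imprint was kept. Where the parental copy is named here, it is background from mouse studies.

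The libraries differed in ways that touch many members. Estimated depth was 21.9 M to 32.8 M reads, and 3 reads on a transcript of 1 kilobase corresponded to 0.0915 to 0.137 RPKM, which covers counting error only. Replicates 3 and 4 were much closer to each other than any other pair, with a median chi-square per gene of 2.44 against 18.8 to 48.2 for the other pairs, although they still differed by more than sampling noise. The Y-linked genes Eif2s3y, Ddx3y, Uty and Kdm5d ranged between 8.16 and 48.5 RPKM in replicates 1 and 2, whereas replicates 3 and 4 list all 4 at 0. Differences between these pairs of libraries therefore go with Y-linked transcripts, whose part in the results was not tested. Across 11842 genes with a mean of at least 1 RPKM, each library's deviation from the gene's mean was correlated with transcript GC content (Spearman -0.27, -0.65, 0.58 and 0.53 in replicates 1 to 4), a description over genes that share libraries. With transcript length the coefficients were 0.35, 0.08, -0.15 and -0.33. Each library held both beta-cell and biliary transcripts, which in bulk RNA does not show that they share cells. Summed levels were 3427 to 10060 RPKM for 6 beta-cell markers, in cells sorted for an Ins1 reporter, and 1055 to 2159 RPKM for 6 gallbladder and biliary markers. The beta-cell markers Ucn3 and Nkx6-1 lay below 1 RPKM. The biliary markers Sox9, with a mean of 0.843 RPKM, and Cftr, with 0.428 RPKM, were not above it. Iapp and Ins2 made up most of the beta-cell sum, and Spp1 and Krt7 most of the biliary sum. Gapdh was listed at 0.20, 0, 0.04 and 0.03 RPKM, so a value at or near 0 in this table does not by itself show that a gene was silent.

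Of the 34 imprinted genes not listed at 0 throughout, 24 lay above 1 RPKM, 6 lay below it and 4 passed in neither direction (limma on log2(RPKM + 1), Benjamini-Hochberg adjusted p under 0.05 over all genes tested). Among all 16919 genes tested, 65.0% lay above 1 RPKM and 26.1% below it, so the counts of the imprinted genes are close to that background. The median level of the 34 genes was 7.40 RPKM and that of all genes tested was 7.38 RPKM. By the parental copy known from mouse, 11 of 16 maternally and 13 of 18 paternally transcribed genes lay above 1 RPKM. Snrpn and Snurf, whose values are identical in every library, both count among the 24 and among the 13. Levels ranged from Cd81 at 685 RPKM to Magel2 and Rtl1, listed at 0. Along the order of the 26 distinct rows with a mean of at least 1 RPKM, only 2 of 25 neighbouring pairs kept their order in every library, Cd81 above Cdkn1c and Rasgrf1 above Mest. The other neighbours exchanged places in at least 1 library.

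**Figure D1:**
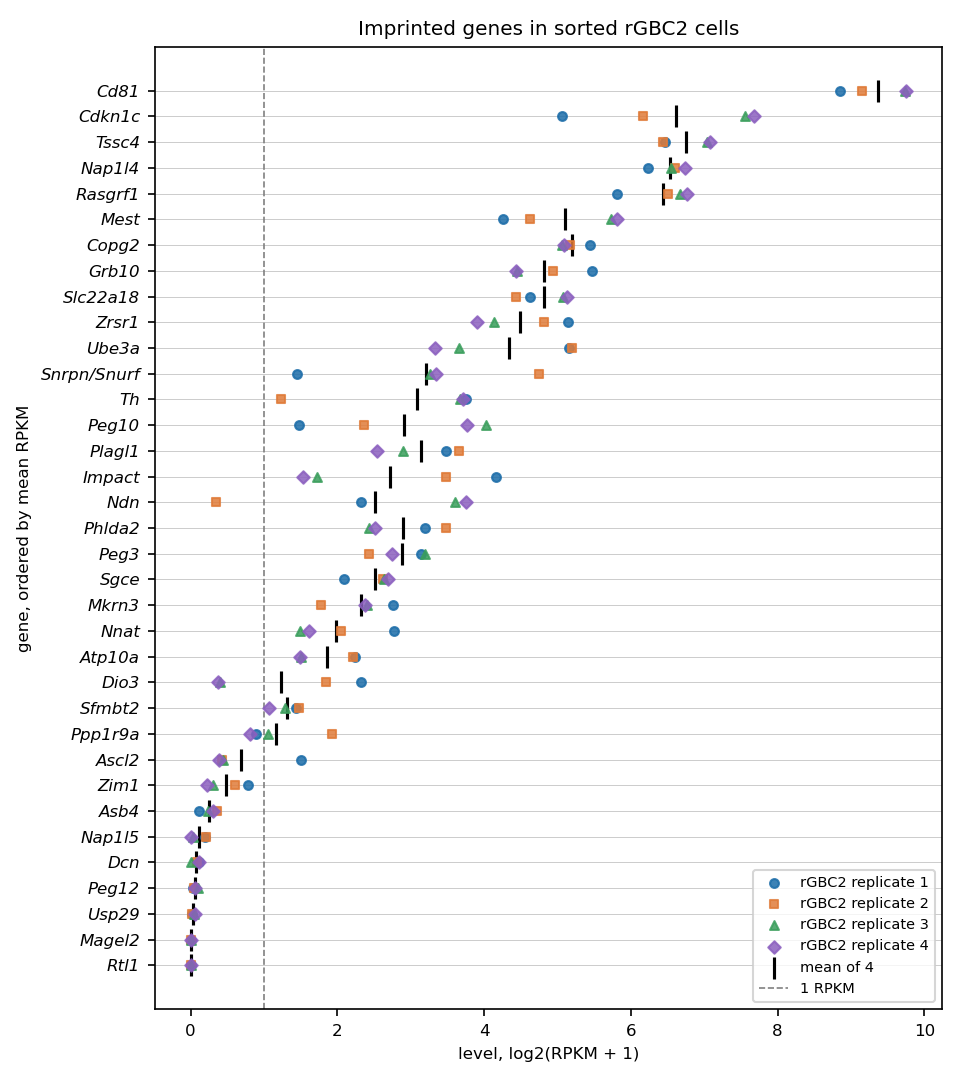
Level of each imprinted gene with a row, as log2(RPKM + 1) on the horizontal axis, with 1 marker per rGBC2 library, a bar at the mean of the 4 and a dashed line at 1 RPKM; Snrpn and Snurf share 1 line because their rows are identical. Cd81 stands highest in every library, and Magel2 and Rtl1 are listed at 0 in all 4.

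Among the 36 listed genes, the highest transcripts came from the Kcnq1 cluster of distal chromosome 7. In mouse studies its members are transcribed mainly from the maternal copy. For several of them, Cd81, Tssc4 and Nap1l4 included, that imprint is restricted to certain tissues such as the placenta. Of the 8 listed genes of this cluster, 7 lay above 1 RPKM, against 65.0% of all genes tested, and Ascl2 passed in neither direction. So few genes do not set the cluster apart from that share. Cd81, a tetraspanin membrane protein (mm9 chromosome 7 from 150238655 to 150253835), was at 461, 570, 849 and 861 RPKM in replicates 1 to 4. It was lowest in replicate 1, and it alone made up 46.2% to 52.7% of the RPKM summed over the 36 listed genes, with the identical Snrpn and Snurf counted as 1 row. Its neighbour Tssc4, a factor of spliceosome assembly (150255273 to 150256992), was at 87.5, 86.0, 130 and 134 RPKM, again higher in replicates 3 and 4. Both lay above 1 RPKM (limma, adjusted p = 4.76e-07 for Cd81 and 4.53e-07 for Tssc4).

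Cdkn1c, the cyclin-dependent kinase inhibitor p57 (chromosome 7 from 150644244 to 150646955), was at 32.3, 70.6, 186 and 204 RPKM in replicates 1 to 4. Its highest library exceeded its lowest 6.33-fold, and it still lay above 1 RPKM, with a mean of 123 ± 84.8 RPKM (SD, n = 4; limma, adjusted p = 7.02e-05). Nap1l4, a histone chaperone, gave 74.1, 96.4, 92.7 and 106 RPKM for replicates 1 to 4, a narrow range lowest in replicate 1. Slc22a18, an organic cation transporter, gave 23.8, 20.6, 32.7 and 33.9 RPKM, higher in replicates 3 and 4. Phlda2, a pleckstrin-homology protein that limits placental growth, was at 8.12, 10.1, 4.38 and 4.71 RPKM and so was higher in replicates 1 and 2, unlike Cdkn1c. All 3 lay above 1 RPKM (limma, adjusted p = 2.39e-07 for Nap1l4, 2.18e-06 for Slc22a18 and 0.000471 for Phlda2).

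Th, tyrosine hydroxylase, the first enzyme of catecholamine synthesis, was at 12.5, 1.34, 11.8 and 12.1 RPKM in replicates 1 to 4. Only replicate 2 was low, and the gene lay above 1 RPKM (limma, adjusted p = 0.00742). Replicate 2 also had the lowest summed level of the 6 neuronal markers, 85.9 RPKM against 118 to 235 RPKM in the other libraries, but 4 of these 6 did not lie above 1 RPKM and their part in the Th value was not tested. Ascl2, a basic helix-loop-helix factor of trophoblast and intestinal stem cells, was at 1.83, 0.34, 0.36 and 0.31 RPKM. It was called neither above nor below 1 RPKM (limma, adjusted p = 0.2). Without replicate 1 its mean was 0.337 RPKM and it lay below 1 RPKM (limma, adjusted p = 0.000163, with a range of 0.000163 to 0.458 over its 10 alternatives).

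**Figure D2:**
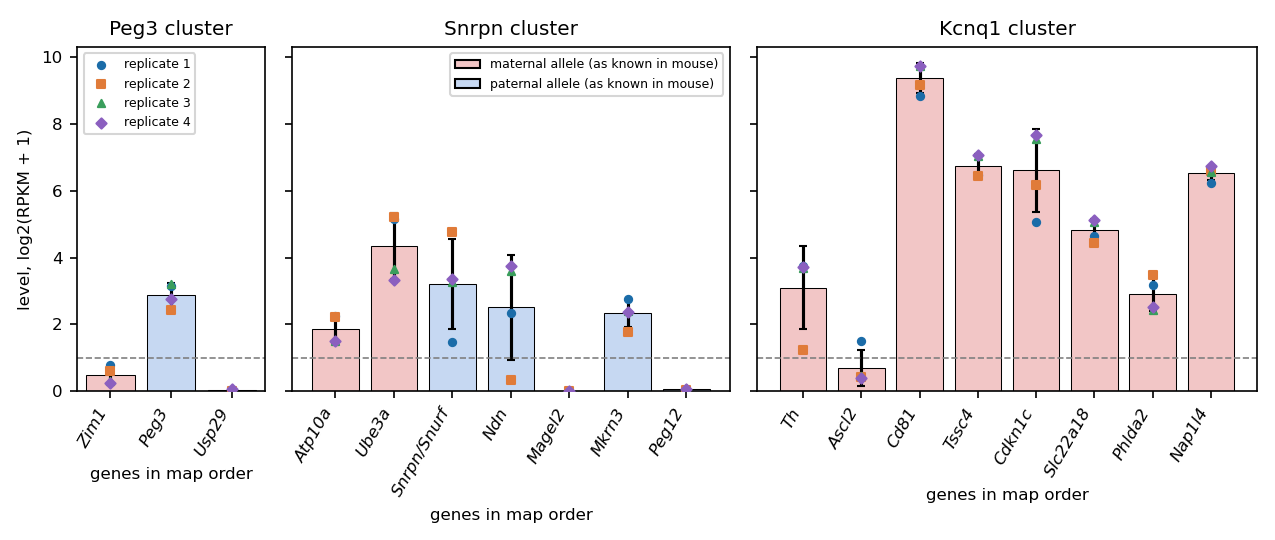
Imprinted genes of 3 clusters of chromosome 7 in map order, with bars for the mean of log2(RPKM + 1), error bars for the SD over 4 libraries, and 1 marker per rGBC2 library. Bar colour gives the parental copy known from mouse studies, not a measurement, and the Kcnq1 cluster holds the highest bars.

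In the Peg3 cluster of proximal chromosome 7, 1 gene of 3 was transcribed above 1 RPKM, against 65.0% of all genes tested. Peg3, a zinc finger protein of the paternal copy (6658671 to 6683130, minus strand), was at 7.85, 4.38, 8.15 and 5.73 RPKM in replicates 1 to 4, a narrow range (limma, adjusted p = 0.000197). Usp29, a ubiquitin protease gene that starts 321 bases from Peg3 on the other strand, was at 0.01, 0.01, 0.03 and 0.04 RPKM and lay below 1 RPKM (limma, adjusted p = 2.39e-07). Its values in replicates 1 and 2 are under that of 3 reads on its transcript. Zim1, a zinc finger gene of the maternal copy, was at 0.72, 0.52, 0.24 and 0.17 RPKM and also lay below 1 RPKM (limma, adjusted p = 0.00375).

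Peg3 and Usp29 thus share a start region but not a level. Their RefSeq promoter windows, which run from 250 bases before to 50 bases after the start, overlap by 263 of 300 bases in GRCm38.p6. The Peg3 window is shown because it faces both genes, the Snurf window because 1 transcript carries both Snrpn and Snurf, and 1 Mest window because Mest is the highest of the listed paternally transcribed genes whose promoter carries more than 1 match. Capitals mark matches on either strand to TGCCGC, the letters that the imprint-protecting zinc finger protein ZFP57 recognises when methylated; AAGATGGC, a core that the factor YY1 binds, was searched on both strands too and is in none of the 3, and these motifs did not overlap.
Peg3, chr7:6730370-6730669, minus strand: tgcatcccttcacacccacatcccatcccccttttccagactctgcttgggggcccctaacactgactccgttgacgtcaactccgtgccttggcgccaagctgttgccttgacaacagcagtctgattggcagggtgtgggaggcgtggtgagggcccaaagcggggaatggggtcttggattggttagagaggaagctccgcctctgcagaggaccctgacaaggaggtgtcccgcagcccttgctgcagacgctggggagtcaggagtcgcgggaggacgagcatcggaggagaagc
Snurf, chr7:60005150-60005449, minus strand: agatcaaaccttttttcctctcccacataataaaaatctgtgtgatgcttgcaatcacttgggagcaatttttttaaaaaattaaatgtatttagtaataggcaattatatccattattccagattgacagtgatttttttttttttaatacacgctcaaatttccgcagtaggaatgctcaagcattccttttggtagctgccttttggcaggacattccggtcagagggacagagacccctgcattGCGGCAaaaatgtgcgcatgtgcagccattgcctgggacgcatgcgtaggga
Mest, chr6:30737800-30738099, plus strand: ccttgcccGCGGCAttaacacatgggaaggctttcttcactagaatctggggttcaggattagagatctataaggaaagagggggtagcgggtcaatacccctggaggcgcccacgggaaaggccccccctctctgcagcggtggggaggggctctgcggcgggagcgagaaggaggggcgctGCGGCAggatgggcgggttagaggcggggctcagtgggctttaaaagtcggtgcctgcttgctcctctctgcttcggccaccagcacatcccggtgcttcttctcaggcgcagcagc
Windows of RefSeq were matched by symbol for 29 of the imprinted genes, 38 windows in all, and 10 of these (26.3%) held TGCCGC, against 11.6% of all 32851 windows. The 10 include the window that Snrpn and Snurf share and a pair of nearly identical Mest windows. With overlapping windows of 1 strand joined, 8 of 36 start regions (22.2%) held TGCCGC, against 11.7% of all 30704. For AAGATGGC the shares were 2.63%, which is 1 window, that of Ube3a, and 2.75%. The imprinted genes' windows had a median of 15.5 CG dinucleotides and all windows a median of 7. The Peg3 window had 13 and the Snurf window 7. A match of letters is a description only, since neither methylation nor binding was measured.

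The Snrpn cluster of central chromosome 7, the mouse counterpart of the human Prader-Willi and Angelman region, was transcribed unevenly between libraries. Snrpn, which encodes a spliceosomal protein of brain and heart, and Snurf, a short reading frame upstream in the same transcript, have the same coordinates (67127388 to 67150042) and identical values in every library, so they are 1 measurement. The value was 1.74, 25.95, 8.62 and 9.15 RPKM in replicates 1 to 4. Replicate 2 exceeded replicate 1 by 14.9-fold, with the other libraries between, and the level lay above 1 RPKM (limma, adjusted p = 0.00817). Without replicate 2 the mean of 11.4 RPKM became 6.50 RPKM.

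Ndn, which encodes necdin, a MAGE-family protein of neurons that restrains growth, was at 4.01, 0.27, 11.2 and 12.5 RPKM in replicates 1 to 4. The gene was lowest in replicate 2, the library with the highest Snrpn, and was called neither way (limma, adjusted p = 0.0569). Without replicate 2 it lay above 1 RPKM with a mean of 9.23 RPKM (limma, adjusted p = 0.00378, with a range of 0.00378 to 0.156 over its 10 alternatives). Magel2, another MAGE gene 27051 bases away, was listed at 0 in all 4 libraries. On its transcript 3 reads would correspond to 0.0198 to 0.0296 RPKM, so any level up to about that is not detectable at this depth. Mkrn3, a makorin ring finger protein that delays puberty, was at 5.75, 2.43, 4.30 and 4.18 RPKM, lowest in replicate 2. Peg12, an intronless gene of the same region, was at 0.02 to 0.07 RPKM and lay below 1 RPKM (limma, adjusted p = 2.94e-07).

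On the maternal side of the cluster, Ube3a, the ubiquitin ligase of Angelman syndrome, which is imprinted in neurons but made from both copies elsewhere, was at 34.7, 35.8, 11.6 and 9.06 RPKM in replicates 1 to 4. Its libraries fell apart into high values in replicates 1 and 2 and low values in replicates 3 and 4, and it lay above 1 RPKM (limma, adjusted p = 0.000296). Its transcript has a GC content of 39.6%, the lowest of the listed genes with a mean of at least 1 RPKM and a matched transcript. Atp10a, a phospholipid flippase, was at 3.75, 3.65, 1.84 and 1.80 RPKM, with the same libraries high (limma, adjusted p = 0.00875).

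On chromosome 6, the Mest and Peg10 regions held genes above 1 RPKM. Mest, a hydrolase-like protein of the endoplasmic reticulum and a marker of growing mesoderm and fat (30688063 to 30698457), was at 18.2, 23.6, 52.1 and 55.1 RPKM in replicates 1 to 4. Copg2, a coat protein of Golgi vesicles, runs on the other strand from the 3' end of Mest, and their deposited spans share 47 bases; it was at 42.6, 35.1, 32.5 and 33.1 RPKM, the smallest ratio of highest to lowest library among the listed genes of at least 1 RPKM. The library kit does not mark strand, so reads in the shared bases cannot be assigned to 1 of them. In replicates 3 and 4 Mest was above Copg2 and in replicates 1 and 2 below it.

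Peg10, a gene derived from a retrotransposon and needed for placenta formation (4697306 to 4710516), was at 1.78, 4.16, 15.4 and 12.6 RPKM in replicates 1 to 4. Sgce, epsilon-sarcoglycan, starts 101 bases away on the other strand and was at 3.27, 5.15, 5.23 and 5.45 RPKM. The level of Peg10 was 8.62-fold higher in replicate 3 than in replicate 1, while that of Sgce was 1.67-fold higher in its highest library than in its lowest. Both lay above 1 RPKM (limma, adjusted p = 0.00966 for Peg10 and 0.000388 for Sgce). Farther along the same region, Ppp1r9a, which encodes the synaptic scaffold neurabin, was at 0.86, 2.79, 1.07 and 0.76 RPKM. It was called neither above nor below 1 RPKM (limma, adjusted p = 0.458), with a mean of 0.897 RPKM without replicate 2. Asb4, a ubiquitin ligase adaptor, was at 0.08 to 0.28 RPKM and lay below 1 RPKM (limma, adjusted p = 1.79e-05).

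Among the listed regulators of growth and signalling outside these clusters, Rasgrf1 stood highest. This guanine nucleotide exchange factor of Ras, which is transcribed in brain and islets, was at 55.1, 90.3, 101 and 107 RPKM in replicates 1 to 4 (limma, adjusted p = 1.01e-06). The deposited row covers 6073 bases of a gene that spans 117472 bases in RefSeq, so the value belongs to a short transcript of 853 bases and may not represent the whole gene. Grb10, an adaptor that inhibits insulin and IGF receptor signalling, was at 43.2, 29.6, 20.8 and 20.6 RPKM (limma, adjusted p = 7.82e-06). Plagl1, a zinc finger factor whose overexpression causes transient neonatal diabetes in humans, was at 10.1, 11.6, 6.42 and 4.80 RPKM (limma, adjusted p = 0.000253). Both were higher in replicates 1 and 2 than in replicates 3 and 4.

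Impact, an inhibitor of the Gcn2 stress kinase, was at 16.9, 10.2, 2.29 and 1.88 RPKM in replicates 1 to 4. It lay above 1 RPKM (limma, adjusted p = 0.0195, with a range of 0.00685 to 0.0830 over its 10 alternatives), but not without replicate 1, where its mean was 4.77 RPKM (limma, adjusted p = 0.0574), or without replicate 2 (limma, adjusted p = 0.0830). Dio3, the deiodinase that inactivates thyroid hormone, was at 4.02, 2.59, 0.32 and 0.30 RPKM. It too was called neither way (limma, adjusted p = 0.572), and its mean of 1.81 RPKM became 1.07 RPKM without replicate 1. Rtl1, a retrotransposon-derived gene of the same chromosome 12 cluster, was listed at 0 in all 4 libraries.

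Genes that lie inside other genes need care in this table. Zrsr1, a splicing factor-like retrogene, was at 34.2, 27.2, 16.5 and 13.9 RPKM, and its whole deposited span of 2880 bases lies within that of Commd1 on the other strand. Nnat, neuronatin, a small membrane protein of neurons and beta cells that aids insulin processing, was at 5.81, 3.14, 1.80 and 2.05 RPKM, and lies within Blcap, which was at 78.4 to 124 RPKM. Zrsr1 and Nnat both exceeded 1 RPKM (limma, adjusted p = 2.38e-05 for Zrsr1 and 0.0126 for Nnat). Nap1l5, a nucleosome assembly protein-like retrogene within Herc3, had 0.15, 0.16 and 0.02 RPKM in replicates 1 to 3, with replicate 4 listed at 0, and lay below 1 RPKM (limma, adjusted p = 7.56e-06). Sfmbt2, a Polycomb-group protein, was at 1.72, 1.78, 1.45 and 1.09 RPKM and only just lay above 1 RPKM (limma, adjusted p = 0.0437). That call was lost in 7 of 10 alternatives, with adjusted p from 0.0239 to 0.131 over all 10.

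Dcn, decorin, a matrix proteoglycan of fibroblasts, had 0.08 RPKM in replicates 1 and 4 and 0.06 RPKM in replicate 2, was listed at 0 in replicate 3, and lay below 1 RPKM (limma, adjusted p = 6.81e-07). The 10 fibroblast and mesenchyme markers summed to 2.91 to 7.46 RPKM, none of them lay above 1 RPKM, 7 lay below it, and Lum was listed at 0. Endothelial markers summed to 0.08 to 0.24 RPKM over 4 genes and immune markers to 0.05 to 0.19 RPKM over 4 genes with a row. Smooth muscle markers summed to more, 2.34 to 19.7 RPKM over 4 genes, of which 3 lay below 1 RPKM. The remaining one, Myh11, lay above it (limma, adjusted p = 0.00674), with its lowest value of 1.6 RPKM in replicate 2 and its highest of 19.4 RPKM in replicate 1. Schwann cell markers summed to 1.12 to 5.09 RPKM over 4 genes, none of them above 1 RPKM and 2 below it. In bulk RNA fewer cells of a type and less RNA per cell cannot be told apart.

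Within clusters, 10 pairs of genes were listed, and 7 could be compared within each library on the log2(RPKM + 1) scale. With 4 libraries the exact two-sided sign-flip permutation test runs over 16 sign patterns, of which at least 2 are always as extreme as the data, so no pair could pass 0.05. Peg3 exceeded Usp29 in 4 of 4 libraries by 2.85 ± 0.36 (SD, n = 4), Cdkn1c exceeded Phlda2 by 3.71 ± 1.69, Nap1l4 exceeded Phlda2 by 3.63 ± 0.63 and Cd81 exceeded Tssc4 by 2.62 ± 0.16, each in 4 of 4 libraries. Each of these 4 reached that smallest exact permutation p, and the adjusted p over the 7 pairs was 0.219. The ratio of Cd81 to Tssc4 was 5.27 to 6.63 in RPKM, whereas that of Cdkn1c to Phlda2 was 3.97, 6.97, 42.6 and 43.4 in replicates 1 to 4. Usp29 was at 0.01 to 0.04 RPKM, so the size of the difference of Peg3 and Usp29 depends on the pseudocount. With a pseudocount of 0.5 that difference was 3.71, and with 0.1 it was 5.72.

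The other 3 pairs changed direction between libraries. Peg10 minus Sgce gave -0.62, -0.25, 1.39 and 1.08 for replicates 1 to 4, negative in the first pair of libraries and positive in the second, with a mean of 0.40 ± 0.98 on the log2(RPKM + 1) scale (exact permutation p = 0.5, n = 4). That of Mest and Copg2 was -1.19, -0.55, 0.66 and 0.72 in replicates 1 to 4, with a mean of -0.09 ± 0.94 (exact permutation p = 1, n = 4). Ube3a exceeded Snrpn by 3.70 in replicate 1 and lay within 0.45 of it in the other 3 libraries, with a mean of 1.13 ± 1.73 (exact permutation p = 0.25, n = 4); without replicate 1 the mean was 0.27.

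**Figure D3:**
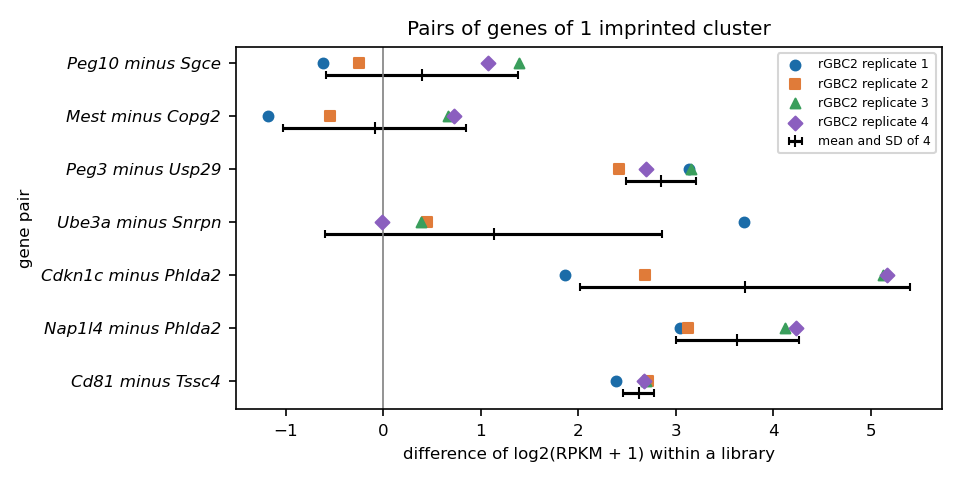
Difference of log2(RPKM + 1) between 2 genes of 1 imprinted cluster within each rGBC2 library, with the mean and SD of the 4 drawn under the markers and a line at 0. Peg10 minus Sgce and Mest minus Copg2 lie below 0 in replicates 1 and 2 and above 0 in replicates 3 and 4.

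The listed genes varied between libraries. Of the 27 with a mean of at least 1 RPKM, 18 had a highest library over 2 times the lowest, against 34.5% of all 11967 genes at that level; counted as distinct rows it was 17 of 26. Of the 20 with a mean of at least 5 RPKM it was 13, and of all 9482 genes at that level 27.5%. The median ratio of highest to lowest library was 2.42 for the 27 and 1.70 for all genes. These shares carry no test, and the fold for low genes is more affected by counting error.

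The ratio of highest to lowest library was largest for Ndn (46.3), followed by Snrpn (14.9), Dio3 (13.4), Th (9.35), Impact (9.01), Peg10 (8.62) and Cdkn1c (6.33). The patterns were not alike. Cdkn1c, Peg10, Mest and Cd81 were higher in both of replicates 3 and 4 than in replicates 1 and 2, Impact, Dio3, Ube3a, Grb10, Zrsr1 and Plagl1 were lower there, and Snrpn, Ndn and Th were set apart by replicate 1 or replicate 2. The highest library was replicate 1 for 9 of the 27 genes, replicate 2 for 7, replicate 3 for 2 and replicate 4 for 9. Among all genes with a mean of at least 1 RPKM the shares were 34.3%, 30.1%, 13.9% and 21.7%.

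GC content and transcript length both moved with these deviations in part. Over the 25 distinct imprinted rows with a matched transcript, Spearman's coefficient between GC content and a library's deviation was -0.11, -0.37, 0.25 and 0.35 in replicates 1 to 4, smaller in size than over all genes. For transcript length over the same rows it was 0.28, 0.25, -0.23 and -0.44, larger in size than for GC content in replicates 1 and 4. Cdkn1c has a GC content of 59.4%, while Impact has 42.1%. Dio3, with 57.8%, was low in replicates 3 and 4, and Ndn and Mest, with 44.5% and 47.3%, were high there. The median over all genes of at least 1 RPKM was 50.9%. The part of GC content or transcript length in these differences was not tested. The matched transcripts of Ndn, Zrsr1 and Dio3, of 3694, 4492 and 2030 bases, are longer than their deposited spans of 1651, 2880 and 1868 bases. Their GC content and length may therefore not be those of the counted transcript, which also touches the coefficients above.

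**Figure D4:**
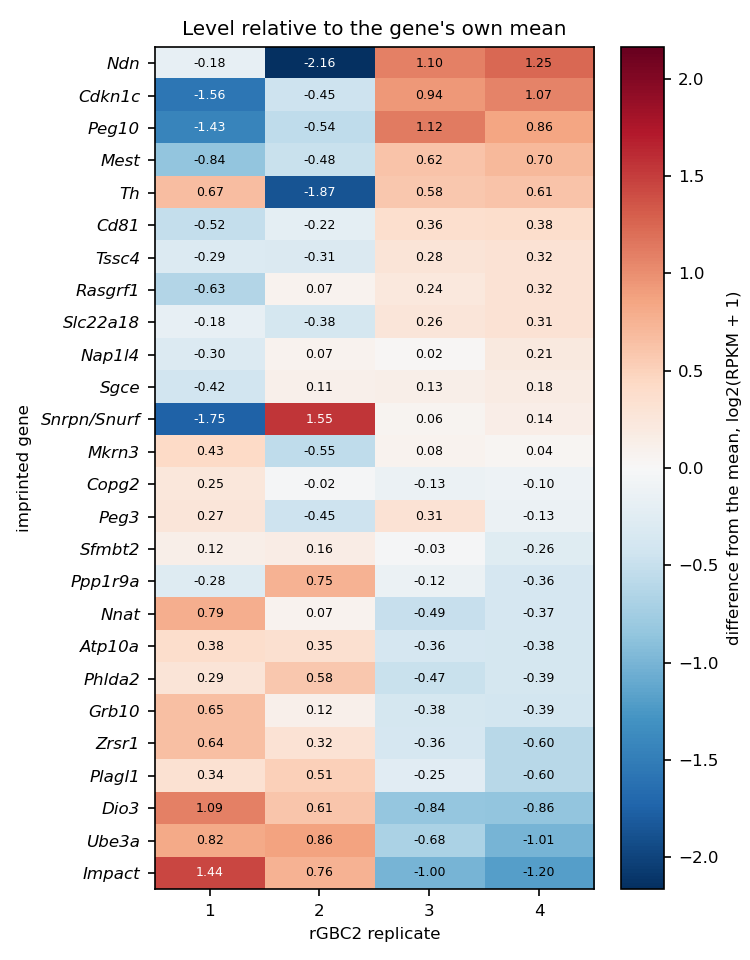
Deviation of each rGBC2 library from the gene's own mean, on the log2(RPKM + 1) scale, for the 26 distinct imprinted rows with a mean of at least 1 RPKM, ordered by replicate 4; red is above the mean and blue below. Ndn is 2.16 below its mean in replicate 2, Snrpn and Snurf are 1.75 below theirs in replicate 1, and Impact is 1.44 above its mean in replicate 1.

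Genes that set, keep or erase imprints were mostly transcribed. Of 28 listed, 26 were tested, 22 lay above 1 RPKM and 4 below it, against the 65.0% and 26.1% of all genes tested. Trim28, the corepressor that protects imprints from demethylation, stood first with 93.5 ± 21.1 RPKM (SD, n = 4), ahead of the de novo methyltransferase Dnmt3a at 56.1 ± 16.4 RPKM, the histone H3 lysine methyltransferase Ehmt2 at 50.5 ± 6.71 RPKM and the insulator protein Ctcf at 25.4 ± 5.58 RPKM. At the low end, Ctcfl, a germline relative of Ctcf, had 0.01 RPKM in replicate 4 and 0 in the other libraries, and Dppa3 and Zfp42, genes of oocytes and pluripotent cells, were listed at 0 throughout.

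Other regulators, named here after their values were seen, included the maintenance methyltransferase Dnmt1 at 13.6 ± 1.91 RPKM and its partner Uhrf1 at 0.523 ± 0.269 RPKM (SD, n = 4 each). Uhrf1 lay below 1 RPKM (limma, adjusted p = 0.00913) and Dnmt1 above it (limma, adjusted p = 3.71e-06). Zfp57, the zinc finger protein that binds methylated TGCCGC, was at 3.15, 7.78, 1.95 and 1.87 RPKM, and Zfp445, which shares that role, at 32.8, 33.4, 9.08 and 6.20 RPKM in replicates 1 to 4. Both were higher in replicates 1 and 2, as were Atrx and Smchd1, chromatin proteins at 27.7, 31.2, 5.54 and 3.67 RPKM and at 14.7, 14.7, 4.97 and 2.95 RPKM. Ctcf also went that way. The opposite held for Trim28, at 84.4, 68.0, 112.2 and 109.5 RPKM, and for Dnmt3a, Ehmt2 and Dnmt1, which were higher in replicates 3 and 4. Transcript GC content was 39.5% for Atrx, 42.2% for Smchd1, 43.3% for Zfp445, 46.35% for Ctcf and 51.7% for Zfp57. It was 51.2% for Dnmt3a, 53.1% for Dnmt1, 59.6% for Trim28 and 59.9% for Ehmt2. The part of GC content in these patterns was not tested.

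**Figure D5:**
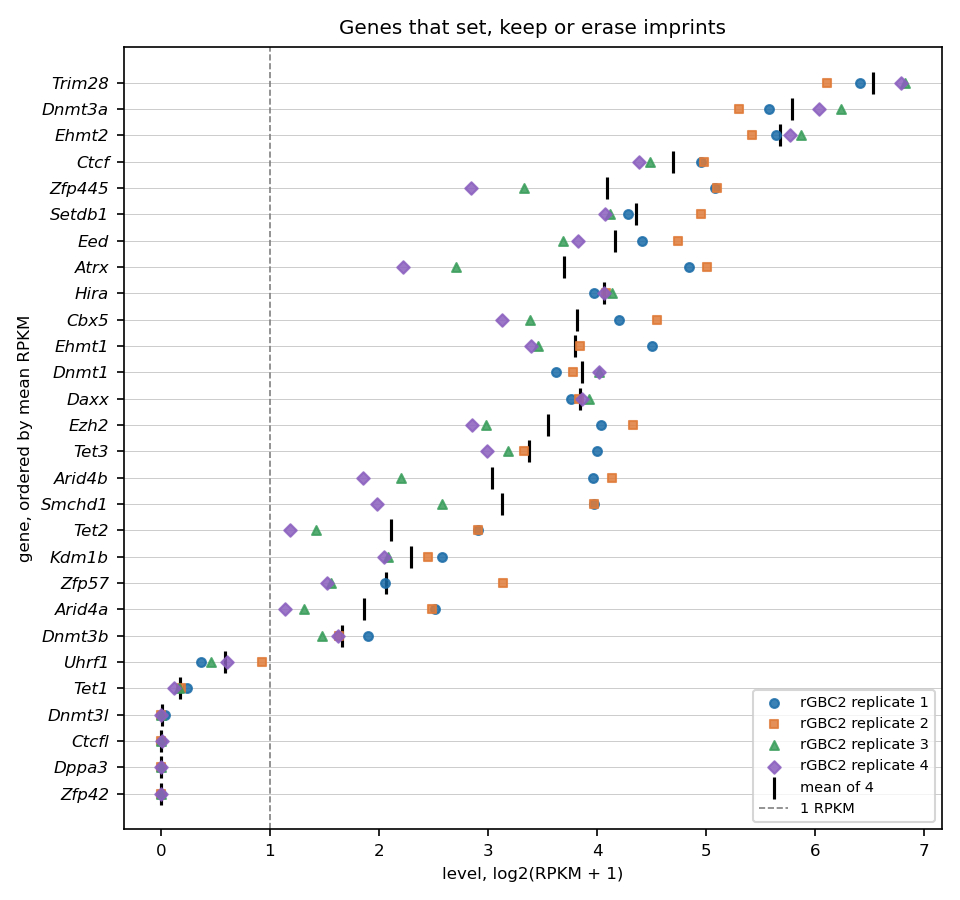
Level of 28 genes that set, keep or erase imprints, as log2(RPKM + 1), with 1 marker per rGBC2 library, a bar at the mean of the 4 and a dashed line at 1 RPKM. Trim28 stands highest, Uhrf1, Tet1, Dnmt3l and Ctcfl lie below the line, and Dppa3 and Zfp42 are listed at 0.

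Of 43 further imprinted genes outside the list of 38, 34 had a row. Of the 32 tested, 21 lay above 1 RPKM and 9 below it, close to the 65.0% and 26.1% of all genes tested. The highest were Gnas, the stimulatory G protein alpha subunit, at 4080 ± 352 RPKM, Commd1, a copper and NF-kB regulator that hosts Zrsr1, at 126 ± 36.4 RPKM, Blcap, which hosts Nnat, at 106 ± 21.3 RPKM, and H13, a signal peptide peptidase, at 104 ± 23.1 RPKM (SD, n = 4 each). Commd1 was lowest in replicate 1, the library where Zrsr1 was highest. Igf2, the fetal growth factor whose partner H19 has no row, was at 28.0, 43.5, 27.6 and 25.7 RPKM in replicates 1 to 4.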

How the data were processed

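RNA was sequenced from 4 rGBC2 libraries (TruSeq v2 kit, per the labels' protocols). The authors deposited RPKM, rounded to 2 decimals, under 1 symbol and 1 RefSeq transcript per gene. The submitters' processing notes name CASAVA 1.8.2, Bowtie and mm9; the counting program, and how it treated reads with several matches, is not given in the sources used here. 6 further per-sample columns match no sample of the series and were not used. Deposited starts count from 0 (span equal to transcript length for 1155 genes) and are printed counting from 1.

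The level of each gene was tested against 1 RPKM with limma 3.58.1 in R 4.3.3, on log2(RPKM + 1) with a mean-variance trend, two-sided, adjusted over 16919 genes; it understates changes of low genes. The test was checked on simulated data with independent libraries, so the check does not cover the closeness of replicates 3 and 4. RPKM holds no read totals, so depth was estimated from the low values of 993 short olfactory receptor genes. GENCODE M21 gave transcript lengths and GC content for 98.1% of genes, matched by RefSeq identifier, and 35 of 36 imprinted genes. Pairs used an exact sign-flip test (scipy 1.17.1). Alternatives were pseudocounts of 0.5 and 0.1, a minimum mean of 0.1 RPKM, median-ratio rescaling, no variance trend, leaving out each replicate, and, added after seeing the data, replicates 3 and 4 averaged. Genes with a mean or highest library of at least 1 RPKM were named with every library; of the 2 further lists, the 4 highest were named, and of the regulators also the 3 lowest. Members and lists were chosen with earlier results of these data known.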

Additional observations from a re-analysis of the deposited data

Results flagged for a closer look

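In 3 imprinted genes, 1 library stood far from the other 3 on the log2(RPKM + 1) scale, with a gap that took most of the gene's range. Chance alone does so for about 1 in 20 genes with 4 independent libraries, and 34 genes were examined. Replicates 3 and 4 were much closer to each other than any other pair, so that rate need not hold here and may be higher. The share over all genes is not given here, so the count of 3 has no background to be read against. For Th the library was replicate 2, whose gap was 0.968 of the range, at 1.34 RPKM against 11.8 to 12.5 RPKM in the others. For Ascl2 it was replicate 1, with 0.951 of the range, at 1.83 RPKM against 0.31 to 0.36 RPKM. For Sgce it was replicate 1, with 0.885 of the range, at 3.27 RPKM against 5.15 to 5.45 RPKM.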

How the results depend on the processing

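The count of imprinted genes above 1 RPKM was 24 and lay between 22 and 25 under the alternatives, and 28 of 34 genes kept their direction and their side of the threshold under all of theirs. The count below 1 RPKM fell to 2 when genes under a mean of 0.1 RPKM were left out, because 4 of the 6 were then not tested; leaving out each replicate gave 6 to 7. Leaving out each replicate moved the log2 level of Dio3 relative to 1 RPKM between -0.13 and 0.52 and that of Ppp1r9a between -0.080 and 0.29, and the difference of Mest and Copg2 between -0.36 and 0.28. The cause was not tested. Ndn passed as above 1 RPKM with the minimum mean of 0.1 RPKM (limma, adjusted p = 0.0394). No paired analysis was possible because all libraries form 1 group. Depth limits statements on Usp29, Peg12, Dcn, Nap1l5, Magel2 and Rtl1.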
